A study of Mus musculus with 70 samples.

Results

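Bcl2l15 and 9 better known genes of the BCL2 family were followed through serial passage of mouse renal carcinoma cells. The 10 genes are Bcl2l15, Bcl2, Bcl2l1, Mcl1, Bax, Bak1, Bcl2l11, Pmaip1, Bbc3 and Bid. They were found as the non-control probes whose transcript belongs to one of these symbols, which gave 15 of the 55681 probes and 10 of the 21154 matched gene symbols. Bcl2l15 was chosen by its large rise between P0 and P6 in these same arrays. Its levels are therefore described and not tested for differences between groups, and they support no other result. The other 9 genes were tested with limma, in fits over all probes that passed the filter on dim signals.

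Expression was measured on single-colour Agilent mouse arrays from total RNA of GFP-RENCA cells, a renal adenocarcinoma line of BALB/c mice made to express GFP with a lentiviral vector. P0 is the parental GFP-RENCA line before any mouse, and P1 to P6 are the lines recovered after each of 6 passages through 6-week-old wild-type female BALB/c mice. KPT lines came from the kidney tumour after injection under the renal capsule, K-LM lines from metastases in the lung of mice injected in that way, and T-LM lines from lung nodules of mice given the cells through the tail vein. The 70 arrays hold 65 RNA samples, with 2 samples at P0, 5, 2, 2, 3, 5 and 5 in KPT P1 to P6, 5, 2, 3, 4, 6 and 4 in T-LM P1 to P6, and 1, 1, 5, 3, 4 and 3 in K-LM P1 to P6. All groups descend from the same parental line, and the recovered cells had been digested out of tissue and kept in culture until GFP-negative cells were no longer seen. The labels do not tie replicates to separate mice, so p-values measure the spread between the deposited samples.

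Proteins of the BCL2 family decide whether the outer membrane of the mitochondrion is opened, which releases cytochrome c and starts caspase activation. BCL2, BCL-XL (Bcl2l1) and MCL1 hold the membrane closed, BAX and BAK (Bak1) form the pores, and the BH3-only proteins, among them BIM (Bcl2l11), NOXA (Pmaip1), PUMA (Bbc3) and BID, carry stress signals to both. Bcl2l15, also named Bfk, is a far less studied relative.

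Bcl2l15 was picked for its rise, and Bcl2 was the member called lower at P5 and P6 in both lung routes than in KPT. Their promoters are therefore shown. Each is the 250 bases upstream of the start site listed by RefSeq in build GRCm38.p6, written 5′ to 3′ along the gene, with matches to the GC box GGGCGG on either strand in capitals. The Bcl2l15 window is chr3:103832446-103832695 on the plus strand and the Bcl2 window is chr1:106714291-106714540 on the minus strand.
Bcl2l15: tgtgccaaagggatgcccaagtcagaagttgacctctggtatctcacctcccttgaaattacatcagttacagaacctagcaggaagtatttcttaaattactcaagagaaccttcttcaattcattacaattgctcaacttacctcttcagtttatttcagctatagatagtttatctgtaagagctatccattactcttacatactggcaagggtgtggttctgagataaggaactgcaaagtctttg
Bcl2: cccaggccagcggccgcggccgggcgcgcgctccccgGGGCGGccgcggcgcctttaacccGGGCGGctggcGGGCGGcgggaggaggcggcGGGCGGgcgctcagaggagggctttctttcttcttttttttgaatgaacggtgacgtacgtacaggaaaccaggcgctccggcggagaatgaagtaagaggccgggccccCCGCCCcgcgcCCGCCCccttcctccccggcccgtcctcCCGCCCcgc
The Bcl2l15 window held no GC box on either strand. The TATA box was searched as TATAAA, and it was absent too. So were the AP-1 motif, searched as TGACTCA, the CCAAT box, the STAT motif TTCNNNGAA and the E box CACGTG. Of the motifs searched, the ETS core GGAAG alone was present, with 1 match, and 64.1% of all promoters held it. The Bcl2l15 window had no CpG and a GC content of 38.8%. Among 32851 promoters of that length, 7.87% had no CpG and the median was 6, with a median GC content of 52.4%. The Bcl2 window had 36 CpG, a GC content of 74.8% and 7 GC box matches, a motif present in 32.7% of all promoters. The TATA box letters were present in 12.4% of promoters and the AP-1 letters in 4.46%. These matches describe the letters in the window only.

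Each level is a log2 processed signal, set relative to the 75th percentile of its array. A probe is called well above background where the scanner software marked it so. Of the 9 members other than Bcl2l15, 8 passed the filter in every comparison made, which asked for at least 2 arrays well above background. Bcl2l11, which encodes BIM, was well above background on 1 of 70 arrays with either of its 2 probes, and was not tested. Its level ran from -8.99 to -5.46 and had no usable order between groups. The brightest probes of Bbc3, Bcl2, Bcl2l1, Bid, Bax, Bak1 and Pmaip1 were well above background on all 70 arrays and that of Mcl1 on 69, with 1 K-LM P3 value left out as an outlier spot. Across the series the scanner called 25.1 to 55.1% of probes well above background per array. The 5 repeat arrays (P0 replicates 1 and 2 and KPT P6 replicates 1, 2 and 4) and the 3 K-LM P6 arrays share a slide, here called the late slide, that was read with a later software version, and the K-LM and P6 fits carry a term for it. The labelled renal epithelial origin was checked with 10 markers. Krt8, Krt18 and Pax8 were well above background in all 65 samples, whereas Cdh1 was in 7, Epcam in 4 and Pax2 in 0. One P1 sample, labelled LOT1 and placed in T-LM from its experiment label, stood apart from the other T-LM P1 samples.

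Bcl2l15 was at or near background in the parental cells and well above it in almost every recovered line. The P0 samples gave -7.41 and -8.41, and 1 of their 4 arrays was called well above background. In 62 of 63 passaged samples the level was above the higher P0 sample, and the same number were well above background on every array. The exception was LOT1, at -7.75. The other 4 T-LM P1 samples gave -1.43, -1.38, -2.03 and -1.69. The higher level was thus present at P1 in all samples but that one.

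**Figure D1:**
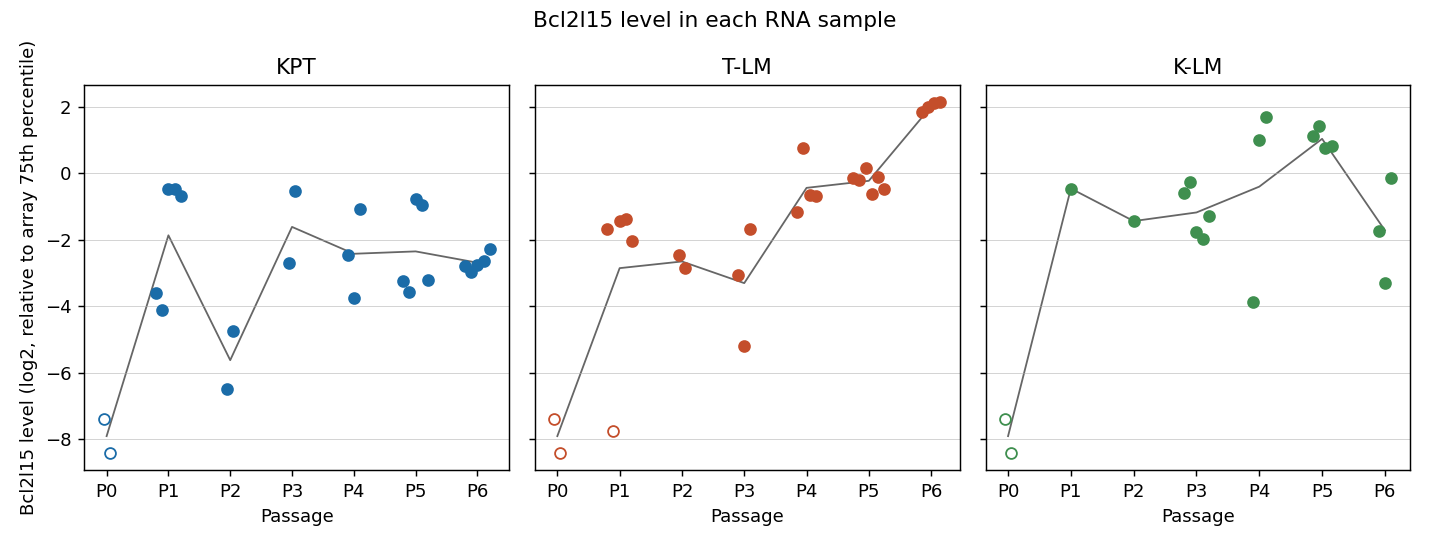
Level of Bcl2l15 (y axis, log2 relative to the 75th percentile of the array) in each RNA sample against passage (x axis), in a panel for each route. Points are RNA samples, open where not every array was well above background; the line joins group means, and the same 2 P0 samples appear in each panel. T-LM climbs from P3 to P6, KPT means stay between -2.69 and -2.35 from P4 on, and K-LM peaks at P5.

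The T-LM route reached the highest levels. T-LM P6 gave 1.83, 1.98, 2.10 and 2.13, all above each of the 61 other samples in the series. T-LM P5 ran from -0.62 to 0.17 with a median of -0.16, and T-LM P4 gave -1.17, 0.76, -0.65 and -0.70. Before that, T-LM P2 gave -2.47 and -2.84 and T-LM P3 gave -3.06, -5.19 and -1.67. The T-LM groups thus stepped up between P3 and P4 and again between P5 and P6, with no overlap at either step. T-LM P6 was at least 250-fold above the first P0 arrays, the repeats left out, of which 0 of 2 were called well above background. The bound sets each of these arrays to the dimmest signal called well above background, or to its own where higher. The repeat P0 arrays, 1 of which was called well above background, do not enter it. The other bounds given for KPT and T-LM use first arrays too.

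In KPT the level did not keep climbing. KPT P1 gave -3.60, -4.13, -0.68, -0.46 and -0.47, KPT P2 gave -6.50 and -4.75, and KPT P3 gave -0.52 and -2.71. KPT P4 gave -2.45, -3.74 and -1.08 and KPT P5 gave -0.77, -0.96, -3.24, -3.58 and -3.21. The 5 KPT P6 samples lay close together at -2.76, -2.64, -2.80, -2.97 and -2.29. Their first arrays were at least 9.67-fold above the first P0 arrays, by the same kind of bound. The spread of the KPT P6 samples (SD 0.25) was smaller than in KPT P1, P3, P4 or P5, where the SD was 1.33 to 1.83.

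In the K-LM lines the brightest Bcl2l15 probe was well above background in every sample. The K-LM P1 and K-LM P2 samples gave -0.46 and -1.44, and K-LM P3 gave -1.98, -0.59, -0.27, -1.30 and -1.76. K-LM P4 gave -3.88, 0.99 and 1.68, the widest group in the series (SD 3.03). K-LM P5 was tight at 1.12, 0.83, 1.43 and 0.76, whereas K-LM P6 gave -1.73, -3.29 and -0.14. On the late slide alone, these K-LM P6 values compare with -7.32 and -9.02 for the 2 P0 samples, of which the higher was called well above background. No lower bound is given for K-LM because its fit includes that array.

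Ordered by group mean, T-LM P6 (2.01) stood above K-LM P5 (1.04), which stood above T-LM P5 (-0.23), and these neighbours did not overlap. From T-LM P5 down to KPT P2, each of the 15 steps joined groups whose samples overlapped. P0 was the lowest of the 19 groups, separated from KPT P2.

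The gene has 3 probes on the array. The middle probe followed the brightest closely (r = 0.929 over 65 samples, which share arrays and scaling) and was well above background on 43 arrays. The dimmest was above background on 9 arrays, and its r with the brightest was 0.70. At T-LM P6 all 4 arrays were well above background for each probe, at mean levels of 2.01, -1.78 and -5.24. At KPT P6 the middle probe was well above background on 3 of 8 arrays and the dimmest on 0, so the KPT level rests largely on the brightest probe.

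Fibroblast markers moved with Bcl2l15 in several groups. The 8 markers, summed on the linear scale and given as log2, ranged from -4.67 to -4.47 at P0, where none was well above background. In KPT P1, replicates 3, 4 and 5 had summed levels of 1.17, 3.65 and 3.10 and the higher Bcl2l15 levels, whereas replicates 1 and 2 had -1.30 and -1.22. In KPT P5, replicates 1 and 2, the higher pair for Bcl2l15, had 4.95 and 3.01 against -0.96 to -0.51 in the others. In K-LM P4, replicate 1 (Bcl2l15 -3.88) had -0.61 and the others 3.34 and 4.05, and in T-LM P1 LOT1 had -1.08 against 2.70 or more. The sums in K-LM P6, at 0.62, 0.18 and 1.79, ranked as Bcl2l15 did (-1.73, -3.29 and -0.14). So did those in T-LM P2, at -0.17 and -1.32 beside -2.47 and -2.84. Some other groups ran differently. KPT P4 had 1.88, 0.50 and -2.12 beside Bcl2l15 levels of -2.45, -3.74 and -1.08. T-LM P4 replicate 3, the highest of its group for Bcl2l15 at 0.76, had the lowest sum, 1.22, against 2.06 to 3.42. T-LM P5 replicate 1 had the highest sum of all samples, 5.67, and a Bcl2l15 level of -0.19. In KPT P2 and KPT P3 the sample with the higher Bcl2l15 level had the lower sum. T-LM P6, with the highest Bcl2l15 level, was not highest for these markers, at 1.22 to 2.99. Over 65 samples, which share arrays and scaling, r was 0.63, and 0.54 without P0. Their part in the Bcl2l15 level was not tested. In such bulk RNA, a different share of cells and a different amount of RNA per cell cannot be told apart.

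Other cell type lists were set beside the gene too. Summed leukocyte markers had an r of -0.20 with Bcl2l15 (-0.40 without P0) and summed lung epithelial markers 0.37 (0.30 without P0). Of 7 lung epithelial markers, 4 to 7 were well above background in T-LM P6, 2 to 6 in T-LM P4 and 1 to 6 in T-LM P1. T-LM P3 and T-LM P5 had 1 to 2, and T-LM P2, KPT P6 and K-LM P6 had 2. Of 7 gut epithelial markers, Muc2, Cdx2, Vil1 and Cdx1 were well above background in 0 of 65 samples and Gpa33 in all of them. An index of long against ribosomal protein mRNAs, used as a sign of RNA quality, had an r of -0.22 with Bcl2l15.

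Among 11319 other genes well above background in at least 10 samples, the pattern most like that of Bcl2l15 over 65 samples was that of Prl2c1 (r = 0.875). Cyth4 (0.854), Prl2c5 (0.853), Tmem51 (0.84) and Emilin2 (0.831) followed. Prl2c1 and Prl2c5 belong to a family of closely related placental prolactin genes, so their probes may read relatives. At the other end were Eya4 (-0.821), Cdk15 (-0.795) and Ptgds (-0.782). The mean level of Prl2c5 was -7.30 at P0, -4.75 at KPT P6, 0.10 at T-LM P6 and -3.42 at K-LM P6. That of Eya4 was -5.12, -5.34, -7.48 and -5.58 in the same order. Within the family, Bax had an r of 0.436 and Bcl2 one of -0.45.

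Levels of the 3 protein-coding genes on either side of Bcl2l15 on chromosome 3, taken in RefSeq order after the rise was known, were also read. From P0 to P6 in T-LM, Ap4b1 changed by 0.34 (adjusted p = 0.469), Ptpn22 by 0.26 (adjusted p = 0.678), Rsbn1 by 0.66 (adjusted p = 0.192) and Phtf1 by 0.00 (adjusted p = 0.997). Hipk1 rose by 1.29 there (adjusted p = 0.00604), and Dclre1b was too dim to test. In KPT and K-LM none of the 5 tested neighbours was called.

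Between P0 and P6, Bbc3 in T-LM was the sole call among the other tested members. In KPT, 0 of 8 tested members were called at an adjusted p of 0.01 or less, where limma called 3.88% of 20978 probes. Of the 8, 2 had an unadjusted limma p under 0.05, as had 3849 of all probes tested. T-LM had 1 of 8 called against 7.31% of 21374 probes, and K-LM 0 of 8 against 4.79% of 22320 probes. In both these routes 3 of 8 had an unadjusted p under 0.05, beside 4972 of the probes in T-LM and 4436 in K-LM. The median change of the 8 was 0.20, -0.18 and 0.06 in that order, beside medians of -0.009, 0.001 and 0.002 over all probes tested. These 3 comparisons share the P0 samples.

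**Figure D2:**
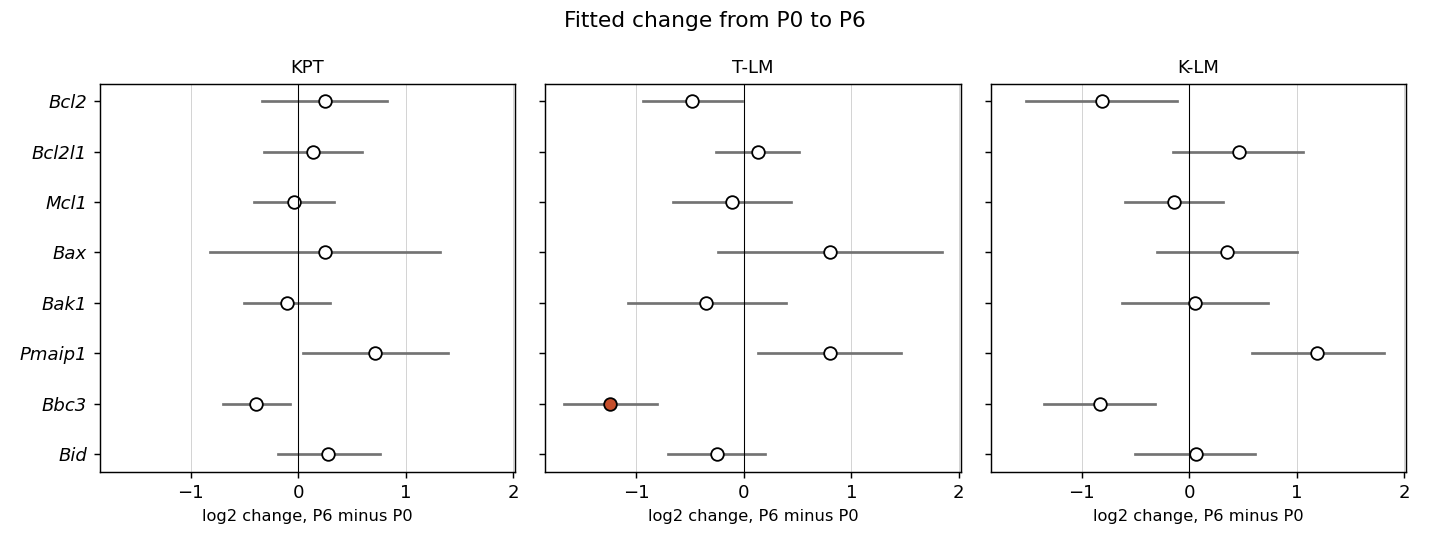
Fitted log2 change from P0 to P6 (x axis) for the 8 tested members (y axis) in each route, with 95% intervals from limma. Filled points passed an adjusted p of 0.01: only Bbc3 in T-LM, at -1.24, did.

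Bbc3, which encodes the p53-induced BH3-only protein PUMA, was the member called in T-LM. Its P0 levels were -2.07 and -2.37. T-LM P2 gave -2.55 and -2.79, T-LM P3 gave -2.92, -2.45 and -2.74, and T-LM P4 ran from -2.87 to -2.53. In T-LM P5 the lowest was -3.60, the median -3.44 and the highest -2.79, and T-LM P6 gave -3.39, -3.43, -3.34 and -3.44. The widest step between successive group means was from P4 (-2.72) to P5 (-3.34), and the T-LM P6 samples were below every KPT and K-LM P4 or P5 sample. The fitted change from P0 to P6 was -1.24 (SE 0.21, adjusted p = 0.000324, limma). It lost its call without P0 replicate 2 (-1.19, adjusted p = 0.0105) and with each slide as a fixed block (-1.02, adjusted p = 0.0409). On the slide that held both groups the difference was -1.28.

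Elsewhere Bbc3 was lower without passing the test. KPT P6 gave -2.57, -2.50, -2.38, -2.50 and -2.80, a fitted change of -0.39 from P0 (95% interval -0.70 to -0.08, adjusted p = 0.143). K-LM P6 gave -2.88, -3.29 and -3.09, and its change was -0.83 (95% interval -1.35 to -0.32, adjusted p = 0.0399). At P6 no sample of either route reached the lower P0 sample, though KPT replicate 3, at -2.38, came within 0.01 of it. That P0 level averaged -2.11 on the first array and -2.64 on the late slide. On the late slide KPT replicates 1, 2 and 4, at -2.49, -2.57 and -2.52, were above that P0 sample.

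Pmaip1, which encodes NOXA, another p53-responsive BH3-only protein, had a higher mean in every later group than at P0. The P0 samples lay at -2.28 and -2.29. K-LM P6 gave -0.61, -1.24 and -1.12, T-LM P6 gave -1.69, -1.92, -1.02 and -1.49, and KPT P6 gave -1.73, -1.42, -1.23, -1.65 and -1.62. None of these samples reached down to P0, yet the fitted changes of 1.19 in K-LM (SE 0.30, adjusted p = 0.0115), 0.80 in T-LM (adjusted p = 0.121) and 0.71 in KPT (adjusted p = 0.239) missed the threshold. In K-LM the late slide arrays alone gave 1.26 (adjusted p = 0.00238). The highest group mean was KPT P1, at -0.82, and that of T-LM P4, at -2.16, was the nearest to P0, with samples from -2.54 to -1.55 that overlapped it.

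**Figure D3:**
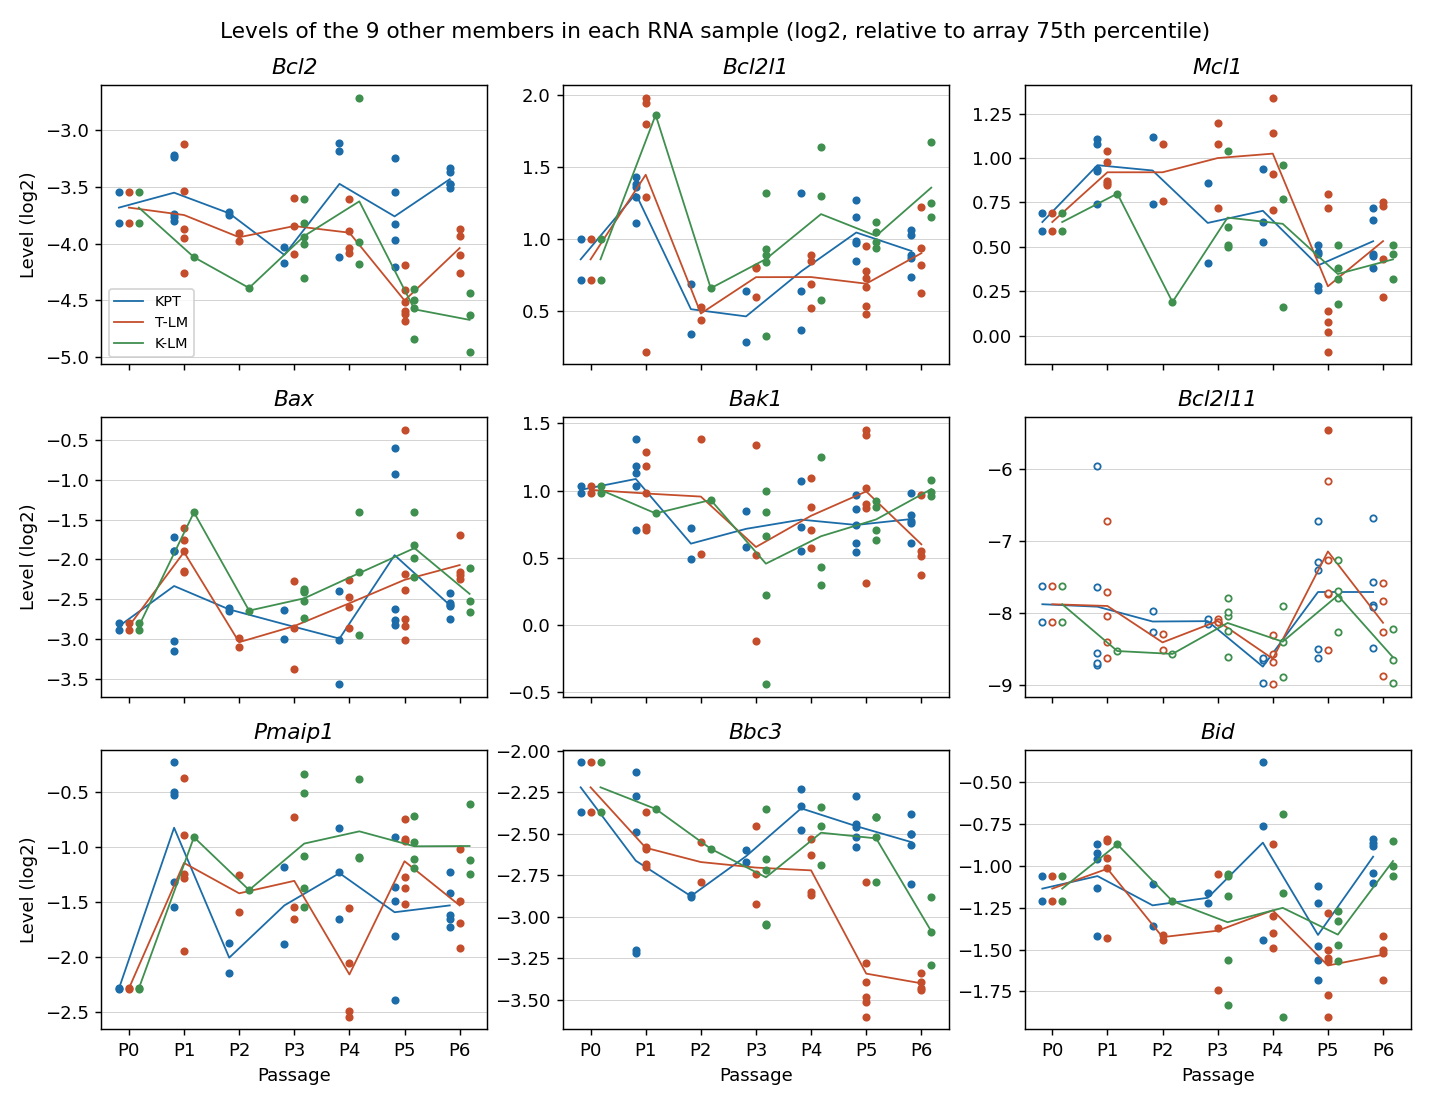
Levels (y axis, log2 relative to the 75th percentile of the array) of the 9 other members in each RNA sample by passage (x axis), coloured by route, with lines through group means and open points where an array was not well above background. Bbc3 is lowest in T-LM P5 and P6, Bcl2 in the lung routes at P5 and K-LM P6, and Bcl2l11 stays at background.

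Among the guardians of the membrane, Bcl2l1 and Mcl1 were not called between P0 and P6 in any route. Bcl2l1, the gene of BCL-XL, gave 0.72 and 1.00 at P0. Its fitted change to P6 was 0.14 for KPT (95% interval -0.32 to 0.59), 0.13 for T-LM (-0.26 to 0.51) and 0.46 for K-LM (-0.15 to 1.06). K-LM P6 gave 1.15, 1.25 and 1.67, all above both P0 samples as averaged over arrays. On the late slide, which held the K-LM P6 arrays, P0 gave 0.62 and 1.27, so the groups overlapped. The second Bcl2l1 probe, well above background on 48 of 70 arrays, gave a fitted change of 0.82 for K-LM (adjusted p = 0.315). At P1 the mean of the brightest probe was higher than at P0, with means of 1.32 in KPT and 1.45 in T-LM, where LOT1 again stood apart at 0.22. The Mcl1 difference was -0.04 for KPT (95% interval -0.41 to 0.33), -0.11 for T-LM (-0.66 to 0.44) and -0.14 for K-LM (-0.60 to 0.31). The 2 Mcl1 probes followed each other weakly (r = 0.313 over 65 samples), and the dimmer one gave 0.17, 0.50 and 0.12 in the order KPT, T-LM, K-LM, of the opposite sign and not called. Its T-LM P6 samples did not overlap P0. The Bcl2l1 probes followed each other more closely (r = 0.702).

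The pore-forming effectors were not called either. The fitted Bax difference was 0.25 for KPT (95% interval -0.82 to 1.32), 0.80 for T-LM (-0.24 to 1.84) and 0.35 for K-LM (-0.30 to 1). For Bak1 it was -0.10 (-0.50 to 0.30), -0.35 (-1.08 to 0.39) and 0.05 (-0.63 to 0.73). Bax varied within groups, with an SD of 1.08 in KPT P5 and 0.97 in T-LM P5. There KPT replicates 1 and 2 gave -0.60 and -0.93 and T-LM replicate 1 gave -0.38, above all other samples of their groups, which ran from -3.01 to -2.18. The same 3 samples had the highest fibroblast sums of those groups, at 4.95, 3.01 and 5.67, and the part of those cells in the Bax level was not tested. Bid, the BH3-only protein cut by caspase-8, had differences of 0.28, -0.25 and 0.06 in the order KPT, T-LM, K-LM.

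From P3 to P6 no tested member was called in any route. Of all probes, the KPT fit called 0.715%, the T-LM fit 7% and the K-LM fit 3.54%, and in each route 1 of 8 members had an unadjusted p under 0.05. The nearest was Bbc3 in T-LM, at -0.69 (SE 0.18, adjusted p = 0.0144), which passed at -0.97, -0.89, -0.77 and -0.77 under 4 other scalings of the arrays. On the 3 slides that held both groups the difference was -0.89 to -0.51. For Bcl2l15, P6 minus P3 group means gave 5.32 in the tail vein route, -1.08 in KPT and -0.54 in K-LM.

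Between routes, Bcl2 was the member called lower in both lung routes than in KPT at P5 and P6, the passages tested. In group means KPT was highest at P1, P2 and P4 too. At P3 it was lowest, at -4.10 beside -3.85 in T-LM and -3.93 in K-LM. At P4 the K-LM samples, from -4.18 to -2.72, overlapped those of KPT, from -4.12 to -3.12. Bcl2, the founding anti-apoptotic gene, gave -3.34, -3.48, -3.48, -3.51 and -3.37 in KPT P6. T-LM P6 gave -4.10, -3.93, -3.87 and -4.26, and K-LM P6 gave -4.43, -4.63 and -4.95, so that these levels of the 3 routes did not overlap. They mix slides, as K-LM P6 was read on the late slide alone and T-LM P6 on other slides. For KPT P6 replicates 1, 2 and 4, the late slide minus the first array was -0.39, -0.62 and -0.20. Averaged P0 levels, -3.82 and -3.55, lay between KPT and T-LM. The place of P0 depended on the arrays, with -3.94 and -3.19 on first arrays and -3.70 and -3.92 on the late slide. The fitted P6 difference was -0.71 in T-LM minus KPT (SE 0.15, adjusted p = 0.00256) and -1 in K-LM minus KPT (SE 0.18, adjusted p = 0.000442). K-LM minus T-LM was -0.29 (95% interval -0.73 to 0.14, adjusted p = 0.341) after the late slide term. On that slide alone, K-LM was 0.98 below KPT.

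The lower Bcl2 level was also seen in the P5 samples. Passage was serial, so P6 lines descend from earlier lines of their route, and P5 and P6 are not independent. The labels do not tie a P6 sample to its P5 line. KPT P5 gave -4.21, -3.55, -3.83, -3.25 and -3.97, T-LM P5 ran from -4.68 to -4.19 with a median of -4.55, and K-LM P5 gave -4.50, -4.84, -4.40 and -4.57. T-LM minus KPT was -0.74 (SE 0.16, adjusted p = 0.00861) and K-LM minus KPT was -0.82 (SE 0.18, adjusted p = 0.00717). Both P5 calls were close to the threshold. They held in 5 of 24 and 5 of 22 alternatives, with the same direction in all. T-LM P5 replicate 3, at -4.19, overlapped the lowest KPT sample, at -4.21. The P6 call of K-LM minus KPT held in all 23 alternatives and that of T-LM minus KPT in 17 of 23.

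**Figure D4:**
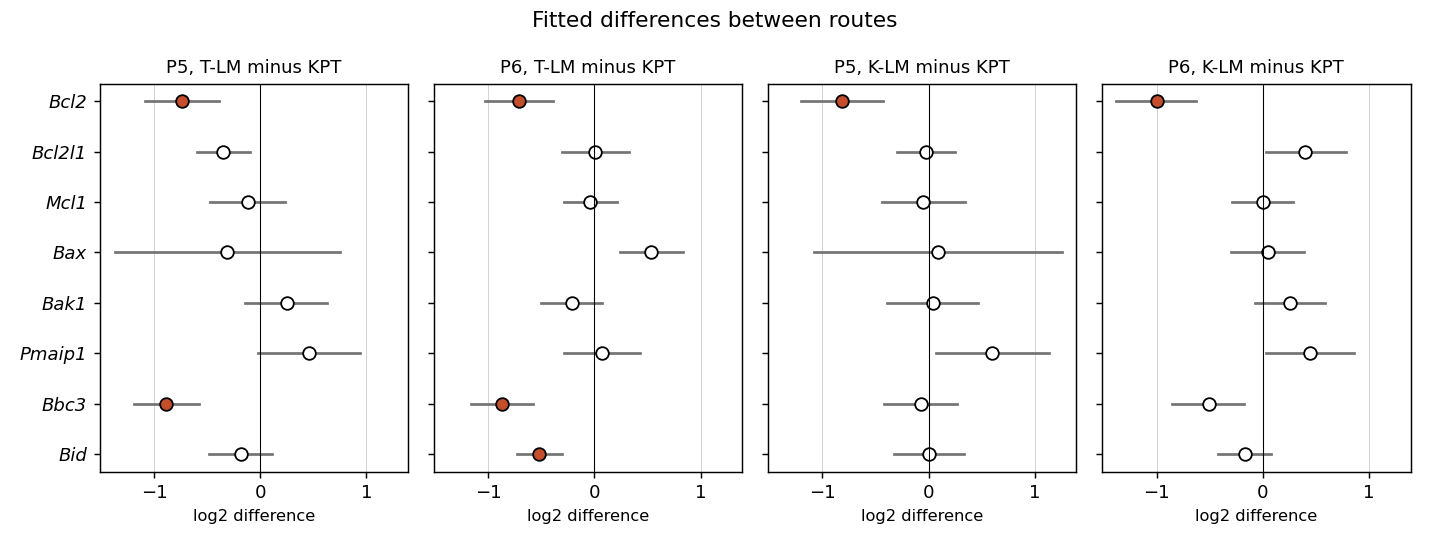
Fitted log2 differences between routes (x axis) at P5 and P6 for the 8 tested members (y axis), with 95% intervals from limma; filled points passed an adjusted p of 0.01. Bcl2 is below 0 and filled in all 4 panels, Bbc3 in both T-LM panels and Bid in the P6 T-LM panel.

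Bbc3 was lower in T-LM than in KPT at both passages. The difference was -0.89 at P5 (SE 0.14, adjusted p = 0.00162) and -0.87 at P6 (SE 0.14, adjusted p = 0.00016), and no T-LM sample overlapped KPT at either. At P5 the 5 KPT samples gave -2.58, -2.44, -2.46, -2.27 and -2.52 and the 4 K-LM samples -2.79, -2.52, -2.40 and -2.40. K-LM was therefore 0.81 above T-LM at P5 (SE 0.15, adjusted p = 0.00516), with 1 pair of samples tied at -2.79. At P6 K-LM lay between the other routes, at -0.51 from KPT (adjusted p = 0.0243) and 0.36 from T-LM (adjusted p = 0.193). The P5 call of K-LM minus T-LM held in 11 of 23 alternatives, and those of T-LM minus KPT in 23 of 24 at P5 and 22 of 23 at P6.

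Bid was lower in T-LM P6 than in KPT P6. KPT P6 gave -1.04, -0.88, -1.10, -0.84 and -0.86 and T-LM P6 gave -1.68, -1.50, -1.52 and -1.42, without overlap. The fitted difference was -0.52 (SE 0.10, adjusted p = 0.00115), which held in 20 of 23 alternatives. At P5 it was -0.18 (95% interval -0.48 to 0.11). K-LM P6, at -1.06, -0.85 and -1, was close to KPT (fitted difference -0.17, 95% interval -0.42 to 0.08). Bax was higher in T-LM P6, at -2.19, -1.69, -2.16 and -2.24, than in KPT P6, at -2.57, -2.42, -2.74, -2.58 and -2.54, but its difference of 0.53 missed the threshold (adjusted p = 0.0121).

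In counts, the P6 comparisons called 3 of 8 members in T-LM minus KPT, 1 of 8 in K-LM minus KPT and 0 of 8 in K-LM minus T-LM. The shares over all 22064 probes were 11.5%, 16% and 11.9%. At P5 the counts were 2, 1 and 1 of 8, beside 5.42%, 7.4% and 3.42% of 19731 probes. The comparisons within a passage share their samples, and the share of members called was not tested against that of all probes. In K-LM minus T-LM at P6, 3 of 8 members had an unadjusted limma p under 0.05, as had 7603 of the 22064 probes. In the same samples the group means of Bcl2l15 differed by 4.70 at P6 and 2.13 at P5 for T-LM minus KPT. For K-LM minus KPT they differed by 0.97 at P6, with overlapping samples, and by 3.39 at P5.

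Other relatives of the family were counted from lists that include the members, and the shares of all probes called from P0 to P6 were 3.88% in KPT, 7.31% in T-LM and 4.79% for K-LM. Of 8 anti-apoptotic genes, 6 had a probe and 5 were tested, and from P0 to P6 the sole call was Bcl2a1d in T-LM. Bcl2a1d encodes A1, a survival protein of blood cells, and its probe may read near-identical copies. It had a mean level of -8.83 at P0, where no array was well above background, -6.96 at KPT P6, -2.23 at T-LM P6 and -8.78 at K-LM P6. T-LM P6 was at least 13.2-fold above P0 (adjusted p = 0.00174). The leukocyte genes Tyrobp (-2.23 at T-LM P6, -8.85 at P0) and Fcer1g (-2.04 and -7.79) were high in the same group, while Cd79a was well above background in 0 of 65 samples. Of 10 leukocyte markers, 6 to 9 were well above background in T-LM P6 and 4 at P0, with summed levels of 1.66 to 1.80 and 1.31 to 1.51. Those sums mostly reflect Cd68, at mean levels of 1.22 and 1.25. The part of such cells in the Bcl2a1d level was not tested.

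Of 3 effector genes, all tested, none was called from P0 to P6 in any route, and Bok, a BAX-like relative, was lower in T-LM than in KPT at P6 (-0.41, adjusted p = 0.00734). Of 8 BH3-only genes, 6 were tested and Bbc3 in T-LM was the sole call from P0 to P6. Bad and Bik, BH3-only sensitisers, were tested and not called, with differences of -0.07 and 0.97 for KPT, -0.01 and 0.27 for T-LM and -0.01 and 0.77 for K-LM. Bmf, released from the cytoskeleton on detachment, had mean levels of -5.87 at P0, -6.11 at KPT P6, -3.60 at T-LM P6 and -4.90 at K-LM P6. It was higher in T-LM P6 than in T-LM P3 (3.02, adjusted p = 0.00183) and than in KPT P6 (2.62, adjusted p = 2.55e-05), while its P0 to P6 change in T-LM was 2.41 (adjusted p = 0.0212). Hrk was too dim to test.

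Of 6 other relatives, a list that holds Bcl2l15, 4 were tested and none was called from P0 to P6. Bnip3, a hypoxia-induced mitochondrial protein, was higher in K-LM P6 than in KPT P6 (1.08, adjusted p = 0.00327). Bnip3l, which serves in mitochondrial clearance, had differences of 0.66, 0.84 and 0.66 in the order KPT, T-LM, K-LM (adjusted p = 0.0899, 0.0228 and 0.149). Bcl2l12 and Bcl2l13 gave -0.31 and -0.70 in T-LM, and Bcl2l14 was too dim to test. Bcl2l2, the gene of BCL-W, gave 0.12, 0.10 and -0.53 in KPT, T-LM and K-LM, and Bcl2l10 was too dim to test.

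Genes downstream and upstream of the family were counted beside the same shares of all probes, and nothing particular to these lists is read from the counts. Of 19 tested genes of the mitochondrial pathway after membrane opening, 1 was called from P0 to P6, in T-LM. It was Casp6, an executioner caspase, which rose by 1.27 (adjusted p = 0.00162). Of 8 tested death receptor genes, Cflar, the inhibitor of caspase-8, was called in that route too, at 1.37 or at least 2.39-fold (adjusted p = 0.00279). Of 10 tested p53 targets, Perp was called there at 3.40 or at least 2.5-fold (adjusted p = 0.00437) and Cdkn1a, the cell cycle inhibitor p21, in K-LM (1.70, adjusted p = 0.00721). The median change of the p53 list was 0.08, -0.11 and 0.16 for KPT, T-LM and K-LM, and 0 of its genes were called lower in any route.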

How the data were processed

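Single-colour Agilent arrays of 70 hybridisations were read from the deposited scanner files. Per the file headers, these hold the authors' spot intensity, raw and processed, from Feature Extraction 11.0.1.1 and, on the late slide, 12.0.2.2. The deposited log2 series values equalled quantile-normalized log2 raw medians within 0.105 and served as an alternative. Levels were log2(processed signal) minus the 75th percentile over the 11289 probes well above background on all arrays. Control spots (3671 of 62976) and flagged outlier spots were left out, spots of a probe were averaged, and 28026 of 55681 probes were named through RefSeq (GRCm38.p6), with a gene's brightest probe used. Bcl2l11 and some relatives were too dim to test.

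limma 3.58.1 (R 4.3.3) fitted groups of 1 route or passage with at least 2 arrays well above background, Benjamini-Hochberg adjustment over all probes and a threshold of 0.01, as in the study's methods. The route fits held P0 and left out P1. Those of KPT and T-LM used first arrays alone. The K-LM fit added the KPT P6 samples that were hybridised again, and the P6 fit added P0. Sample levels in the text average all arrays of a sample. Fits with repeat arrays used duplicateCorrelation on RNA sample. The routines were tested on simulated data. Named genes were all members, the fixed relatives, up to 3 called rises and falls of each downstream list and the 5 most and 3 least alike genes. Members and lists were chosen with earlier results of these data known. Alternatives covered scaling, background, filters, probe averaging, samples in the fit, slide, RNA index, replicate block and leaving out samples. The number of arrays limits the precision.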

Additional observations from a re-analysis of the deposited data

Results flagged for a closer look

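In 81 sets of a member in a group of 4 to 6 samples, 4 held a sample whose gap to its nearest neighbour was large for the range of its group by Dixon's criterion (4.94%, and chance gives about 1 in 20). The sets include those of Bcl2l15, a gene chosen from these data, for which a flag only describes the spread within a group. The T-LM P1 sample labelled LOT1 was low for Bcl2l15 (-7.75, the others -2.03 to -1.38) and for Bid (-1.43, the others -1.01 to -0.84). For Bax, T-LM P5 replicate 1 was high (-0.38, the others -3.01 to -2.18) and so was T-LM P6 replicate 2 (-1.69, the others -2.24 to -2.16).

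The change from P0 to P6 differed between routes by a limma test of the P6 levels for Bbc3 (-0.87 in T-LM minus KPT), Bcl2 (-0.71 in T-LM minus KPT and -1 in K-LM minus KPT) and Bid (-0.52 in T-LM minus KPT).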

How the results depend on the processing

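None of the single-member differences followed through the alternatives reversed direction, and the others were not followed. From P0 to P6, the count of members called in T-LM (1) became 0 with slide as a fixed block, and 0 without P0 replicate 2 (range 0 to 1). In K-LM (0) it became 2 with only the compared groups or the late slide arrays alone, and 1 with slide as a block or the RNA index. From P3 to P6 in T-LM (0) it was 1, Bbc3, under the 75th percentile over all probes, quantile, normexp (run on the median signal) and the series values, and in KPT (0) it was 1 with only the compared groups. At P5, T-LM minus KPT (2) gave 1 under those 4 scalings, only the compared groups, one model, slide and index, and 0 without the filter. K-LM minus KPT (1) gave 0 in each of these 9, and K-LM minus T-LM (1) gave 0 without the filter and with only the compared groups, slide or index. Leaving out samples gave 1 to 2, 0 to 1 and 0 to 1. Bcl2 in T-LM minus KPT was lost without T-LM replicate 1, 2, 4, 5 or 6 or KPT replicate 2, 3, 4 or 5 (adjusted p up to 0.0252), Bcl2 in K-LM minus KPT without K-LM replicate 2, 3, 5 or 6 or KPT replicate 2, 3 or 4 (up to 0.031), and Bbc3 in K-LM minus T-LM without T-LM replicate 2, 3, 4 or 5 or K-LM replicate 3, 5 or 6 (up to 0.0248). At P6, T-LM minus KPT (3) gave 1 in one model and 0 with slide as a block, and 2 to 3 over samples left out, where Bcl2 lost its call without T-LM replicate 1 (adjusted p = 0.0107), T-LM replicate 4 (0.0123) or KPT replicate 4 (0.0111). Without the late slide term, K-LM minus KPT gave 2 and K-LM minus T-LM 1. The causes were not tested.

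Replicate numbers showed no pairing common to the comparisons: in 35 pairs the correlation of deviations was -0.385 to 0.771, with every pair over 0.1 in 0 comparisons. From P3 to P6 in K-LM, 4 of 6 samples matched best with their own number. At P6 this was 3 of 6 in K-LM minus KPT, 0 of 8 in T-LM minus KPT and 0 of 6 in K-LM minus T-LM. With so few samples per group, a pairing could be missed. With the replicate block the P5 counts were 1, 0 and 0, and at P6 T-LM minus KPT gave 2, with Bcl2 lost (adjusted p = 0.0145). The block changed no other count of members, and took the probes called at P6 in T-LM minus KPT from 2539 to 1923.

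For Bcl2l15, P6 minus P0 was 5.22, 9.92 and 6.19 (KPT, T-LM, K-LM), and 4.72 to 5.72, 9.42 to 10.42 and 5.4 to 6.97 over samples left out. With normexp it was 3.65, 8.33 and 4.59, with the series values 3.84 and 8.54 in KPT and T-LM, with a floor on dim signals 3.95 and 8.65, and with its 3 probes averaged 2.24, 6.84 and 3.20. At P0 the signal was at background, which limits any fold.

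Over all probes, counts called moved by over 1.5 times in some settings of every comparison. From P0 to P6 they ran from 216 to 1746 in KPT (813), 416 to 2238 in T-LM (1562) and 329 to 3192 in K-LM (1069), and from P3 to P6 from 0 to 822 (150), 379 to 1774 (1496) and 162 to 1884 (791). At P5 they ran from 365 to 1530 (1069), 362 to 1680 (1461) and 28 to 813 (674), and at P6 from 431 to 2990 (2539), 1007 to 3953 (3537) and 802 to 4090 (2627). Scaling over all probes moved the median change from 0.001 to -0.218 from P0 to P6 in T-LM, and from 0.07 to -0.204 from P3 to P6.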
